A study of Mus musculus with 7 samples.

Results

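The miR-17-92 cluster is a group of microRNAs (miRNAs) cut from 1 primary transcript. Its members on the array were found by name. All 9 listed names were present among the 1881 miRNA names of the array: mmu-miR-17-5p, mmu-miR-17-3p, mmu-miR-18a-5p, mmu-miR-18a-3p, mmu-miR-19a-3p, mmu-miR-20a-5p, mmu-miR-20a-3p, mmu-miR-19b-3p and mmu-miR-92a-3p. The prefix mmu, for mouse, is left off below. The cells were CD4+ T cells, pulled from mouse draining lymph nodes with a CD4 antibody and magnetic beads. They came from EAM mice, a model of myocarditis, 6 days after induction (4 arrays), and from LAD mice, a model of myocardial infarction, 3 days after induction (3 arrays). These days are those of the sample labels, while the series text gives them in the opposite order. Strain and age are not given in the sources used here. No cells of healthy mice entered the comparison, so each value below sets 1 disease model against the other.

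MYC and E2F factors switch on the transcript of the cluster in dividing cells, and its mature miRNAs are known for driving proliferation and survival of lymphocytes. They lower BIM, a protein that triggers cell death. In CD4+ T cells the cluster is induced on activation and promotes T helper 1 and follicular helper responses. A hairpin yields a 5p and a 3p arm, of which 1 usually becomes the guide strand that is loaded into Argonaute, and the other is the passenger strand. The seed, bases 2 to 8 of the mature miRNA, sets most of its target choice.

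The 6 hairpins lie on chromosome 14 of the mouse assembly GRCm38.p6, plus strand, at chr14:115043671-115044506, a stretch of 836 bases that begins with miR-17 and ends with miR-92a-1. All 9 members matched the RefSeq table of that assembly. Their mature sequences are shown 5′ to 3′ with the seed in capitals, because the seed divides the members into 7 groups and decides which of them share targets.
miR-17-5p: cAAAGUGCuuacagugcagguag
miR-20a-5p: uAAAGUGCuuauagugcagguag
miR-18a-5p: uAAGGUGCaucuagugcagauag
miR-19a-3p: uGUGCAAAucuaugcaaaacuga
miR-19b-3p: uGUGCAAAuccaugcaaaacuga
miR-92a-3p: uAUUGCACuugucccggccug
miR-17-3p: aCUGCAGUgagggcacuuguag
miR-18a-3p: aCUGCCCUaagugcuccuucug
miR-20a-3p: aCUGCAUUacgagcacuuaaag

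miR-17-5p and miR-20a-5p share a seed and 91.3% of their bases. miR-19a-3p and miR-19b-3p also share a seed and 95.7% of their bases. Every other member has a seed of its own within the cluster. The sequences of miR-19b-3p and miR-92a-3p are each encoded at a second place, on chromosome X in the paralogous miR-106a-363 cluster, so their signal cannot be assigned to chromosome 14 alone.

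The array reads a miRNA through short probes that pair with its 3′ end, and the probe decides what a name measures. The probes named for miR-17-5p pair with 12 or 13 bases. They match miR-106a-5p of the chromosome X cluster equally well, and that miRNA has no name of its own among those analysed here. The longer of these probes and the 2 mature sequences are shown because the bases that tell the miRNAs apart lie outside the probe. In these lines the capitals mark the seed.
miR-17-5p probe: ctacctgcactgt
miR-17-5p: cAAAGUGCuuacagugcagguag
miR-106a-5p: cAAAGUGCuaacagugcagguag
The miR-17-5p probes differ from miR-20a-5p and from miR-20b-5p by 1 base. The miR-20a-5p probes differ from miR-17-5p and from miR-20b-5p by 1 base, and the probes of miR-19a-3p and miR-19b-3p differ from each other's target by 1 base. Cross-hybridisation between these near copies was not tested. Levels of different miRNAs are not compared with each other below, since each probe has its own efficiency.

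Between 445 and 471 miRNAs were detected, that is flagged above background by the scanner software, on an EAM array, and between 311 and 380 on a LAD array. On EAM arrays 1 to 4, 9, 9, 8 and 9 members were detected. On LAD arrays 1 to 3, 6, 9 and 7 members were. In such RNA from many cells, fewer cells of a type and less RNA per cell cannot be told apart. All 5 markers of leukocytes and mature lymphocytes (such as miR-142a-3p and miR-150-5p) were detected on all 7 arrays. Of 17 markers of other cells, 5 were detected on at least 1 array and 2, miR-223-3p of myeloid cells and miR-451a of red cells, on all 7. The 4 markers of stroma and smooth muscle and the 4 of heart and skeletal muscle were detected on none. The summed signal of the 17 (log2) was 8.95 to 9.15 on the EAM arrays and 10.11, 9.36 and 9.21 on LAD arrays 1 to 3. These sums are quantile-normalized, as described below, and on that scale the 5 detected markers went both ways. EAM minus LAD, miR-223-3p was at -1.64, miR-126a-3p of endothelium at -0.22 and miR-451a at -0.14. The epithelial miR-203-3p and miR-200c-3p were at 1.10 and 0.40. They were detected on 4 of 4 EAM arrays and on 0 and 1 of 3 LAD arrays. Without scaling between arrays miR-223-3p was at -0.02 and the others were higher in EAM, by 0.44 to 1.70. The part of these other cells in the results was not tested. Nothing in the labels says that the arrays come from separate mice, so p-values measure only the spread between these samples. Day and model differ together, and so does the slide column, with the EAM arrays in 1 column and the LAD arrays in the other. Their effects cannot be told apart.

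Values below are log2 signal after background correction and quantile normalization, which gives every array the same distribution, unless called unscaled. Between the models, 1 of the 8 members that could be tested passed, miR-19b-3p, which was lower in EAM cells than in LAD cells. No member was higher in EAM at the threshold (limma, Benjamini-Hochberg adjusted p under 0.05 over 423 tested miRNAs). Over all 423 tested miRNAs the share that passed was 59.8%, with 36.2% higher in EAM and 23.6% higher in LAD. At an unadjusted p under 0.05, 3 members passed, and 67.4% of all tested miRNAs did. The median difference, EAM minus LAD, was -0.37 (log2) over the members and 0.31 over all tested miRNAs. Over the 6 members detected on all 7 arrays it was -0.51, against -0.09 over the 251 miRNAs so detected. The test took in a miRNA if all arrays of 1 model or the other detected it. miR-18a-3p, detected on 3 of 4 EAM arrays and 1 of 3 LAD arrays, did not qualify. miR-17-5p and miR-20a-3p qualified through their EAM arrays alone, so a higher value in EAM is favoured for them by the filter. The values of miR-18a-3p, 4.52, 4.44, 4.39 and 4.56 on the EAM arrays and 4.92, 4.70 and 4.90 on the LAD arrays, lie near background and are given as a description.

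**Figure D1:**
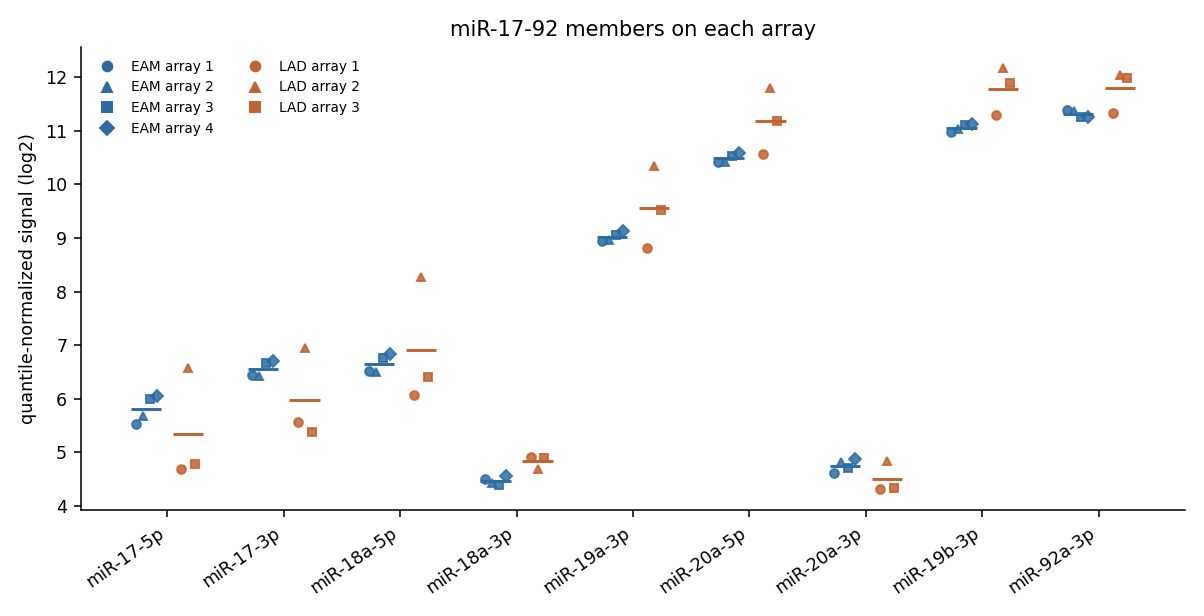
Quantile-normalized, background-corrected log2 signal (vertical axis) of the 9 members (horizontal axis, in the order of the cluster, 5p before 3p) on each EAM array (blue) and LAD array (orange), with a bar at each group's mean. The EAM arrays lie close together, and LAD array 2 has the highest value of all 7 arrays for 7 of the 8 tested members.

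The miR-19 pair accounts for much of the cluster's effect on T cells and lymphomas. miR-19b-3p had quantile-normalized log2 values of 10.97, 11.03, 11.10 and 11.12 on the EAM arrays and 11.28, 12.16 and 11.88 on the LAD arrays. The groups do not overlap, which held for 1 of 8 tested members and for 56.3% of all tested miRNAs (22.2% with LAD above EAM). The difference was -0.72 (log2, standard error 0.21, 95% interval -1.20 to -0.24, limma adjusted p = 0.0236), or 1.65-fold higher in LAD. Its adjusted p lay between 0.0061 and 0.0730 when 1 array was left out, and the call ended when any EAM array or LAD array 3 was dropped. It was also lost in the authors' deposited table of log2 values (-0.31, adjusted p = 0.356), and its direction turned under 4 other scalings, given below.

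miR-19a-3p, its near copy, had 8.94, 8.95, 9.06 and 9.13 on the EAM arrays and 8.82, 10.34 and 9.53 on the LAD arrays. LAD array 1 lies below every EAM array and the other LAD arrays lie above, so the groups overlap. The difference of -0.54 (standard error 0.32, 95% interval -1.28 to 0.20, limma adjusted p = 0.163) did not pass.

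miR-17-5p and miR-20a-5p repress E2F1 and the cell cycle inhibitor p21 as well as BIM. miR-17-5p, in mice a promoter of T helper 1 responses together with miR-19b, had 5.53, 5.68, 5.99 and 6.06 on the EAM arrays and 4.69, 6.57 and 4.79 on the LAD arrays. LAD arrays 1 and 3 were the lowest of the 7 and LAD array 2 the highest, and 2 of 3 LAD arrays detected it. Its difference was 0.46 (standard error 0.44, 95% interval -0.57 to 1.49, limma adjusted p = 0.365). Since its probes also match miR-106a-5p, this signal cannot be divided between the 2.

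miR-20a-5p had 10.42, 10.41, 10.53 and 10.58 on the EAM arrays and 10.57, 11.80 and 11.17 on the LAD arrays. LAD array 1 falls within the EAM range, and the other LAD arrays lie above it. The difference was -0.70 (standard error 0.26, 95% interval -1.31 to -0.08), 1.62-fold higher in LAD, and missed the threshold (limma adjusted p = 0.0512). Although miR-17-5p and miR-20a-5p share a seed, their differences had opposite signs. The probes of each differ from the other miRNA by 1 base. The difference between the 2 was not tested.

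miR-18a-5p, which in mouse CD4+ T cells restrains T helper 17 differentiation through Smad4, Hif1a and Rora, had 6.52, 6.50, 6.76 and 6.84 on the EAM arrays and 6.07, 8.28 and 6.41 on the LAD arrays. LAD array 2 was 1.62 (log2) above the EAM mean, while LAD arrays 1 and 3 were below every EAM array. The difference of -0.26 had a standard error of 0.48 (95% interval -1.38 to 0.86, limma adjusted p = 0.634).

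miR-92a-3p, known in endothelial cells for repressing the integrin subunit ITGA5, had 11.38, 11.36, 11.25 and 11.25 on the EAM arrays and 11.33, 12.04 and 11.99 on the LAD arrays. LAD array 1 lies within the EAM range. The difference was -0.48 (standard error 0.19, 95% interval -0.92 to -0.04), and it missed the threshold (limma adjusted p = 0.0573).

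The 3p arms of miR-17 and miR-20a are the strands of their hairpins that are usually discarded. miR-17-3p had 6.45, 6.42, 6.66 and 6.71 on the EAM arrays and 5.58, 6.95 and 5.39 on the LAD arrays, with LAD arrays 1 and 3 the lowest and LAD array 2 the highest. Its difference was 0.59 (standard error 0.36, 95% interval -0.24 to 1.41, limma adjusted p = 0.175). miR-20a-3p, detected on 1 of 3 LAD arrays, had 4.62, 4.82, 4.72 and 4.87 on the EAM arrays and 4.32, 4.85 and 4.34 on the LAD arrays. Its difference was 0.26 (95% interval -0.13 to 0.64, limma adjusted p = 0.201). The other arms of the hairpins, miR-19a-5p, miR-19b-1-5p and miR-92a-1-5p, were detected on 0 of 7 arrays.

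The probes of a member gave the same direction in every case. The 2 probes of miR-19b-3p differed by -0.77 and -0.66, those of miR-20a-5p by -0.79 and -0.60, and those of miR-92a-3p by -0.66 and -0.30. The 12-base and 13-base probes of miR-17-5p differed by 0.51 and 0.42.

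**Figure D2:**
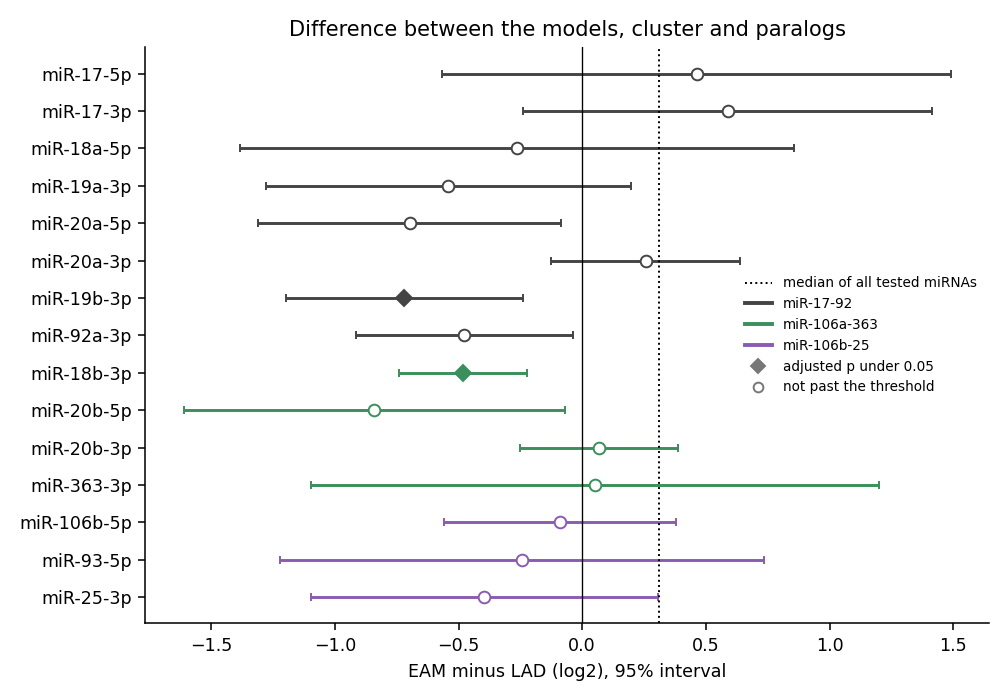
Difference EAM minus LAD (log2, horizontal axis) with its 95% interval for each tested member of miR-17-92 (grey) and of the miR-106a-363 (green) and miR-106b-25 (purple) clusters. Filled diamonds mark miR-19b-3p and miR-18b-3p, which passed at an adjusted p under 0.05. miR-18b-3p was admitted to the test through its LAD arrays alone. The dotted line marks the median of all 423 tested miRNAs, at 0.31.

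The spread of the members lay among the LAD arrays. In the EAM arrays the members' values spanned 0.13 (miR-92a-3p) to 0.53 (miR-17-5p) log2 units. In the LAD arrays the 8 tested members spanned 0.53 (miR-20a-3p) to 2.21 (miR-18a-5p). A larger SD in LAD than in EAM was common to 94.1% of all tested miRNAs.

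LAD array 2 held the highest of the 7 values for 7 of the 8 tested members, miR-20a-3p being the exception. Among all tested miRNAs that array was highest for 15.6%. It lay above both other LAD arrays for 8 of 8 tested members, against 58.4% of all tested miRNAs. The median gap between LAD array 2 and the mean of LAD arrays 1 and 3 was 1.05 (log2) over the members and 0.33 over all tested miRNAs. The gap was 2.04 for miR-18a-5p and 1.83 for miR-17-5p, and 0.38 for miR-92a-3p. These counts were chosen after the values were seen and carry no test.

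LAD array 2 also detected the most miRNAs of the LAD arrays, and after quantile normalization it stood apart in miR-150-5p and miR-342-3p. It detected 380 miRNAs, against 341 and 311 on LAD arrays 1 and 3. miR-150-5p, abundant in resting lymphocytes, had its lowest value there, with 12.42 to 12.52 on the EAM arrays and 12.19, 9.81 and 11.19 on LAD arrays 1 to 3. miR-342-3p was likewise lowest there, with 10.88 to 11.01 on the EAM arrays and 11.16, 9.53 and 10.43 on LAD arrays 1 to 3. Without scaling both were lowest on LAD array 3: miR-150-5p had 10.08, 9.44 and 8.31 and miR-342-3p 9.03, 9.20 and 7.67 on LAD arrays 1 to 3. Of the other leukocyte markers, miR-142a-5p was lowest on LAD array 2 after quantile normalization, with 13.13, 12.74 and 12.96 on LAD arrays 1 to 3. miR-142a-3p had 14.953, 14.863 and 14.865 there, nearly the same on LAD arrays 2 and 3. Without scaling LAD array 2 was the highest LAD array for both. miR-142a-5p then had 11.05, 11.82 and 9.62 and miR-142a-3p 12.98, 14.28 and 11.96 on LAD arrays 1 to 3. miR-155-5p was lowest on LAD array 3 after quantile normalization, with 9.43, 8.17 and 7.93 on LAD arrays 1 to 3. The part of these differences in the members' values was not tested.

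The calls depended on which LAD array was left out. Without LAD array 2, 4 members were higher in EAM (54.8% of all tested miRNAs were) and 1 was higher in LAD (26.5% were). Among the 4 were miR-17-5p and miR-20a-3p, which the filter admitted through EAM alone. Of the remaining LAD arrays 1 detected miR-17-5p and 0 detected miR-20a-3p, so neither is counted here as a change. Of the 6 members detected on all 7 arrays, a count added after seeing the data, 2 were higher in EAM (38.6% of the 251 miRNAs so detected were), miR-17-3p at 1.08 (log2, limma adjusted p = 0.000310) and miR-18a-5p at 0.42 (limma adjusted p = 0.0345). Of these 6, 1 was higher in LAD (38.2% were), miR-19b-3p at -0.53 (limma adjusted p = 0.0221). Without LAD array 1, 4 members were higher in LAD (15.8% of all tested miRNAs were) and none was higher in EAM. These were miR-20a-5p at -1.004, miR-19b-3p at -0.96, miR-19a-3p at -0.91 and miR-92a-3p at -0.71 (limma adjusted p from 0.0061 to 0.0318). Without LAD array 3, 0 members passed and 29.3% of all tested miRNAs did, and without any single EAM array 0 members passed and 17.7% to 28.4% of all tested miRNAs did.

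**Figure D3:**
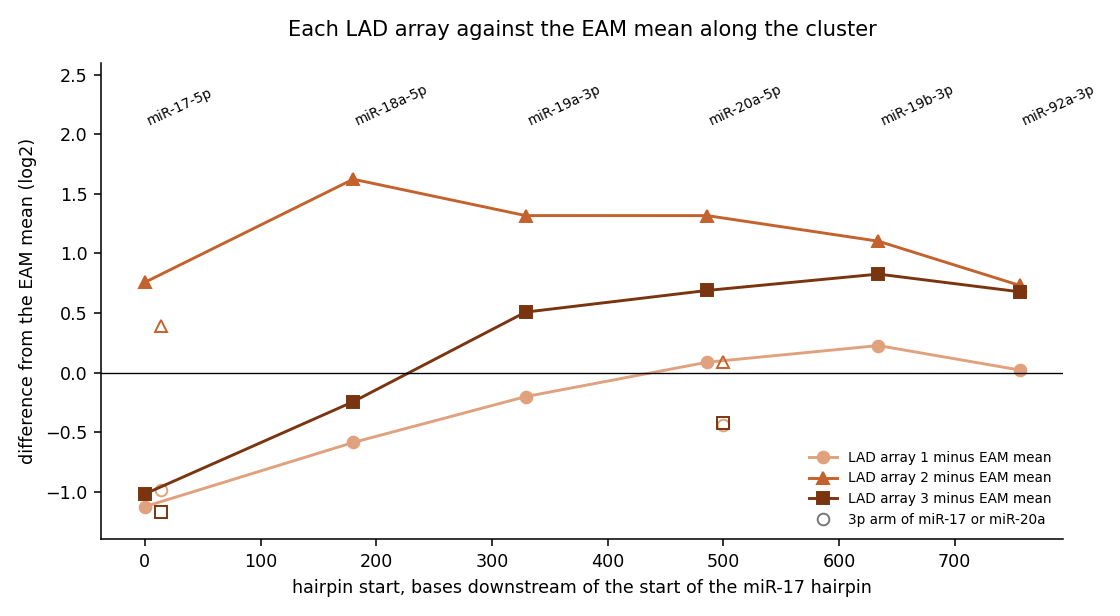
Difference of each LAD array from the mean of the 4 EAM arrays (quantile-normalized log2 signal, vertical axis) for the tested members, placed by the start of their hairpin in bases downstream of the miR-17 hairpin (horizontal axis). Lines join miR-17-5p, miR-18a-5p, miR-19a-3p, miR-20a-5p, miR-19b-3p and miR-92a-3p, and open symbols are the 3p arms of miR-17 and miR-20a. LAD arrays 1 and 3 run from -1.13 and -1.02 at miR-17-5p to 0.02 and 0.68 at miR-92a-3p, while LAD array 2 is above 0 for every member; without scaling LAD arrays 1 and 3 run from -1.84 and -2.03 to -2.64 and -2.99.

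Set out along the transcript, the quantile-normalized values of LAD arrays 1 and 3 were farthest below EAM at miR-17-5p, and without scaling they were farthest below EAM at miR-92a-3p. After quantile normalization LAD array 1 differed from the EAM mean by -1.13 (log2) for miR-17-5p, -0.59 for miR-18a-5p, -0.20 for miR-19a-3p, 0.09 for miR-20a-5p, 0.23 for miR-19b-3p and 0.02 for miR-92a-3p. LAD array 3 had -1.02, -0.24, 0.51, 0.69, 0.83 and 0.68 for the same members. LAD array 2 had 0.76, 1.62, 1.32, 1.32, 1.10 and 0.73, above the EAM mean throughout. Without scaling the order on LAD arrays 1 and 3 ran the other way: LAD array 1 differed from the EAM mean by -1.84 for miR-17-5p, -1.78 for miR-18a-5p, -2.34 for miR-19a-3p, -2.59 for miR-20a-5p, -2.49 for miR-19b-3p and -2.64 for miR-92a-3p. LAD array 3 then had -2.03, -1.78, -2.40, -2.80, -2.80 and -2.99 for the same members. The pattern along the cluster thus depends on the scaling. The members' signals also differ along the cluster, and position and signal cannot be told apart here.

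Each member was also set against the mean of the 8 tested members on the same array, which removes any factor common to an array. Relative to the cluster, miR-17-3p differed by 0.76 (EAM minus LAD, log2), with -1.66, -1.72, -1.60 and -1.61 on the EAM arrays and -2.26, -2.17 and -2.80 on the LAD arrays. On the same scale miR-19b-3p differed by -0.54, miR-20a-5p by -0.52 and miR-19a-3p by -0.37. For these 4 members the groups do not overlap, and p = 0.0571 (two-sided exact permutation test), the smallest that 35 splits allow, so none could reach 0.05. The relative values of miR-17-5p differed by 0.64 and those of miR-20a-3p by 0.43 (exact permutation p = 0.114 each), those of miR-92a-3p by -0.30 (0.343) and those of miR-18a-5p by -0.09 (0.857). In all, 8 members were compared. The mean includes miR-17-5p and miR-20a-3p, which the filter admitted through EAM alone. With only the members detected on all 7 arrays in the mean, miR-17-3p differed by 0.94, miR-20a-5p by -0.35 and miR-19a-3p by -0.19 (exact permutation p = 0.0571 each). miR-19b-3p then differed by -0.37 (exact permutation p = 0.114).

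These relative values depended on quantile normalization, which reshapes the distribution of each array. Without scaling between arrays, the sign turned for miR-19b-3p (0.35), miR-20a-5p (0.31), miR-19a-3p (0.03), miR-92a-3p (0.59), miR-17-5p (-0.21) and miR-20a-3p (-0.61). miR-17-3p was at 0.10 and miR-18a-5p at -0.54 (exact permutation p from 0.0571 to 0.914 over the 8).

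The 2 arms of a hairpin are made in equal number, so their difference within an array sets 1 strand against the other. For miR-20a the 5p minus 3p difference was 5.80, 5.60, 5.81 and 5.70 (log2) on the EAM arrays and 6.25, 6.95 and 6.84 on the LAD arrays, a difference between the models, EAM minus LAD, of -0.95 (two-sided exact permutation p = 0.0571, the smallest possible). Without scaling the sign turned, to 0.93 (exact permutation p = 0.286). miR-20a-3p was above background on 1 of 3 LAD arrays, so its LAD values are near the lower limit. For miR-17 the difference was -0.92, -0.75, -0.67 and -0.65 on the EAM arrays and -0.89, -0.38 and -0.60 on the LAD arrays, which overlap (EAM minus LAD -0.13, exact permutation p = 0.400). Without scaling the groups did not overlap for miR-17 (EAM minus LAD -0.31, exact permutation p = 0.0571, the smallest possible).

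Every tested member had a higher mean in EAM without scaling, by 0.82 (miR-20a-3p) to 2.02 (miR-92a-3p) log2 units. Of the 6 members detected on all 7 arrays, 4 passed as higher in EAM (61% of the 251 miRNAs so detected did): miR-92a-3p at 2.02 (limma adjusted p = 0.0123), miR-19b-3p at 1.78 (0.0289), miR-20a-5p at 1.74 (0.0429) and miR-17-3p at 1.53 (0.0157). miR-20a-3p, detected on 1 of 3 LAD arrays and admitted to the test through EAM alone, also lay past the threshold (0.0240) and is not counted with them. Of all tested miRNAs 70.7% passed as higher in EAM without scaling, and 0.473% as higher in LAD. The median difference was then 1.64 over the 6 members and 1.29 over the 251 miRNAs.

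**Figure D4:**
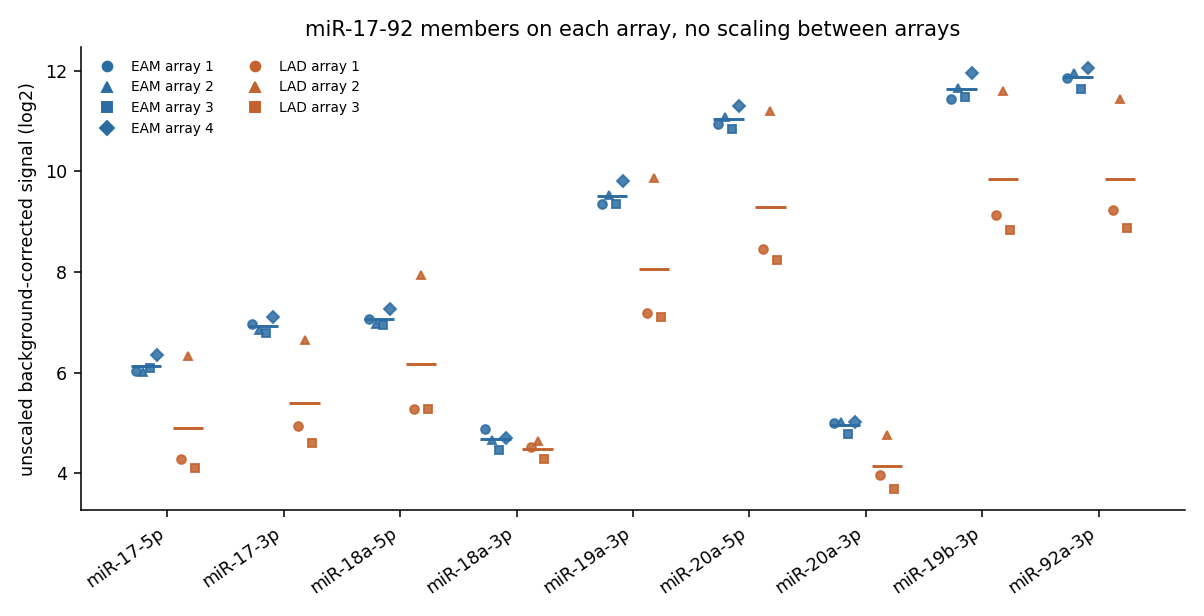
Background-corrected log2 signal with no scaling between arrays (vertical axis) of the 9 members (horizontal axis) on each EAM array (blue) and LAD array (orange), with a bar at each group's mean. LAD array 2 lies near, within or above the EAM values, and LAD arrays 1 and 3 lie below every EAM array for all tested members.

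Unscaled, the members' mean on LAD array 2 lay within the EAM range, and the median of all tested miRNAs lay below it. The mean of the 6 members detected on all 7 arrays was 9.61, 9.67, 9.51 and 9.92 (log2, unscaled) on the EAM arrays and 7.37, 9.79 and 7.16 on the LAD arrays. The median of all tested miRNAs was 5.98, 5.91, 5.72 and 5.90 on the EAM arrays and 4.94, 5.42 and 4.66 on the LAD arrays. miR-18a-5p on LAD array 2 was 0.68 above the highest EAM array without scaling, and miR-19a-3p was 0.06 above it. LAD array 2 was the highest of the 7 arrays for 2 of 8 tested members without scaling (4.73% of all tested miRNAs) and for 7 of 8 in the authors' table (14.7%). It lay above both other LAD arrays for 8 of 8 tested members without scaling, as it did for 90.3% of all tested miRNAs.

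**Figure D5:**
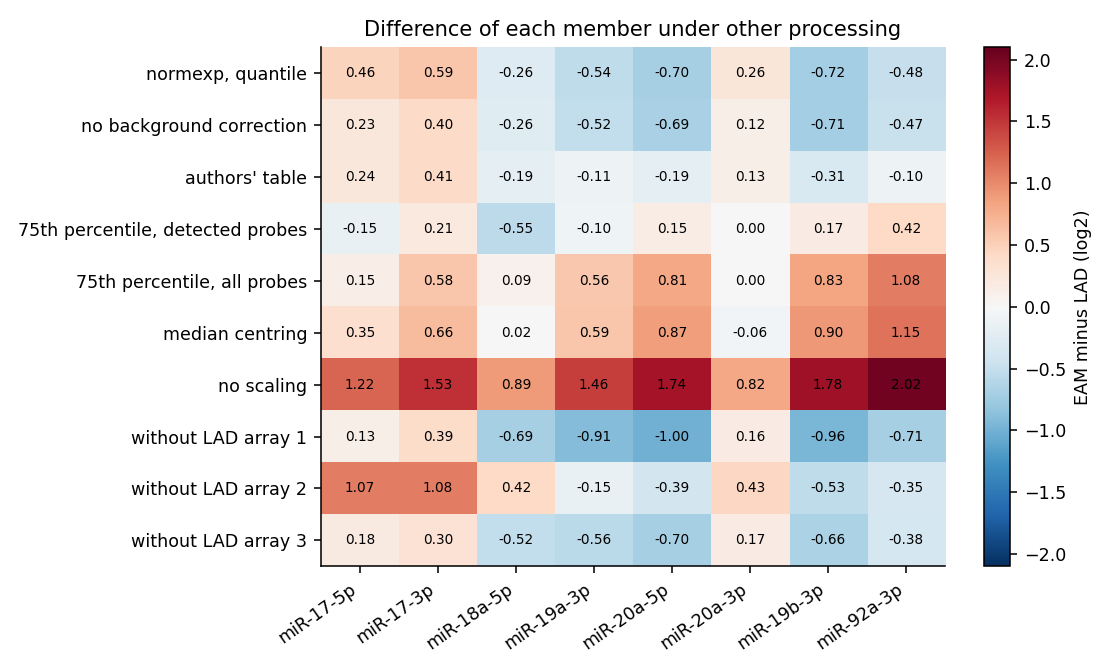
Difference EAM minus LAD (log2, number and colour) of the 8 tested members (columns) under 10 ways of processing the arrays or leaving 1 out (rows). Red is higher in EAM and blue higher in LAD. miR-19b-3p runs from -0.96 without LAD array 1 to 1.78 without scaling.

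The sign of most members followed the scaling. With median centring miR-92a-3p was the only member to pass, at 1.15 toward EAM (limma adjusted p = 0.0452), while 63.1% of all tested miRNAs passed. Scaled to the 75th percentile over all probes, miR-92a-3p was at 1.08 and miR-19b-3p at 0.83, and 0 members passed (15.8% of all tested miRNAs did). miR-17-3p had the same sign, toward EAM, under all these scalings, from 0.21 with the 75th percentile of detected probes to 1.53 with no scaling.

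The paralogous clusters share seeds, and so many targets, with miR-17-92. Of the 10 names of the miR-106a-363 cluster on chromosome X, 9 were on the array and 4 were tested. Of these, 1 passed as higher in LAD (23.6% of all tested miRNAs did), miR-18b-3p (-0.48, limma adjusted p = 0.0142), and 3 did not pass. miR-18b-3p, whose seed is that of no member, was detected on 3 of 4 EAM arrays and 3 of 3 LAD arrays. It was admitted to the test through LAD alone, which favours a higher value in LAD, so it is not counted here as a change. miR-20b-5p had 10.54, 10.56, 10.59 and 10.61 on the EAM arrays and 10.57, 12.18 and 11.50 on the LAD arrays, a difference of -0.84 (limma adjusted p = 0.0573). Without scaling miR-18b-3p was at 0.19 and miR-20b-5p at 1.69. After quantile normalization miR-20b-5p was highest on LAD array 2 and lay within the EAM range on LAD array 1, as miR-20a-5p did. The miR-20a-5p probes differ from miR-20b-5p by 1 base. Of the 6 names of the miR-106b-25 cluster on chromosome 5, 3 were tested, miR-106b-5p, miR-93-5p and miR-25-3p. Among these 3, 0 passed, against 59.8% of all tested miRNAs. The median difference was -0.22 over the first cluster and -0.25 over the second, and both turned without scaling, to 0.87 and 1.70. After quantile normalization LAD array 2 was the highest of the 7 for 6 of these 7 paralogs (15.6% of all tested miRNAs). Without scaling it was the highest for 3 of them (4.73% of all tested miRNAs). miR-93-5p had quantile-normalized values of 8.03, 8.13, 8.20 and 8.23 on the EAM arrays and 7.52, 9.54 and 8.11 on the LAD arrays.

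Outside the cluster, 9 tested miRNAs share a seed with a member. Of these 9, 1 passed as higher in EAM (36.2% of all tested miRNAs did), miR-32-5p (0.82, limma adjusted p = 0.0232). It has the seed of miR-92a-3p. Detected on 4 of 4 EAM arrays and 2 of 3 LAD arrays, miR-32-5p was admitted to the test through EAM alone. The filter favours a higher value in EAM for it, so it is not counted here as a change. A further 2 were higher in LAD (23.6% of all tested miRNAs were). These were miR-92b-3p (-0.77, limma adjusted p = 0.0118), which also has the seed of miR-92a-3p, and miR-7069-3p (-0.40, limma adjusted p = 0.0294), which has that of miR-18a-3p. The other 6 did not pass. Without scaling between arrays the difference of miR-32-5p kept its sign (1.498), while the signs of miR-92b-3p (0.10) and miR-7069-3p (0.30) turned. miR-32-5p had 5.45, 5.54, 5.80 and 5.94 on the EAM arrays and 4.77, 5.36 and 4.47 on the LAD arrays, so LAD array 2 was not its highest. miR-92b-3p had 4.95, 5.10, 5.08 and 4.98 on the EAM arrays and 5.87, 5.51 and 6.01 on the LAD arrays, where LAD array 2 was the lowest of the 3.

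The miRNAs outside these lists whose profile over the 7 arrays came nearest to the members' mean were miR-296-5p, miR-146b-5p, miR-8101, miR-130b-5p and miR-3960. Likeness was measured as the root mean square difference between centred log2 profiles, which was 0.09 for miR-296-5p and 0.20 for miR-3960. miR-296-5p had 5.59, 5.65, 5.82 and 5.86 on the EAM arrays and 5.49, 6.52 and 5.56 on the LAD arrays. None of the 5 passed between the models (59.8% of all tested miRNAs did). They were selected by likeness to the members' mean over the same arrays, so this is no separate result. Among the paralogs the nearest was miR-25-3p, at 0.14, and miR-106b-5p and miR-93-5p followed at 0.18 and 0.20.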

How the data were processed

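Per the labels, RNA came from a miRVANA kit, and 100 ng per array was labelled at the 3′ end of the RNA with Cy3. Per the file headers, the 1-colour Agilent arrays were read by Feature Extraction 10.7.3.1. Spot values in the deposited scanner files are intensity units with no scaling between arrays, beside detection flags. The authors' deposited values are in log2 units, and the submitters' processing notes name RMA, with no version. RMA set the choices here: normexp on mean signal over all spots (limma 3.58.1, R 4.3.3), quantile normalization, log2, the median of a probe's spots without outlier flags, and median polish over probes. Files were read with version 1.17.8 of the R package data.table. The 423 miRNAs that all arrays of 1 group or the other detected were fitted with lmFit and eBayes, with Benjamini-Hochberg adjustment over all of them. Relative values were tested by exact permutation over 35 splits. The test was tried on simulated data before use. The number of arrays limits the precision.

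Named miRNAs are the members, the other arms of their hairpins, 2 paralog clusters, tested miRNAs with a member's seed, cell markers and the 5 nearest profiles. The members, lists and tests were chosen with earlier results of these data known. Sequences and positions are RefSeq's (GRCm38.p6), and probe sequences are those of the scanner files. Alternatives changed background correction, scaling, filter, variance model, array weights and the replicate block, used total gene signal or the authors' table, and left out each array. The block was not in the fit, since the labels do not say that equal numbers share anything.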

Additional observations from a re-analysis of the deposited data

How the results depend on the processing

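The members' group difference depended on scaling and on LAD array 2. The count of members that passed was 1 as reported (59.8% of all tested miRNAs passed). It was 0 with the 75th percentile of all probes (15.8% of all), the 75th percentile of detected probes (2.13%) and the authors' table (56.7%), and 0 with an unmoderated unequal-variance test and the replicate block, which called 0 of all 423 miRNAs. At an unadjusted p under 0.05, 2 members passed with the block and 0 under the other 4 of these settings. The count was 2 with miRNAs detected on at least 1 array (57.5%), with no filter (23.7%) and with a trend and robust fit (63.1%). Besides miR-19b-3p, the 2 looser filters let miR-18a-3p pass as higher in LAD. It lies near background, was detected on 1 of 3 LAD arrays and turned to 0.19 without scaling. The trend and robust fit called miR-20a-5p instead (limma adjusted p = 0.0406). With array weights 4 members passed, 3 of them higher in EAM (75.7% of all called). Of these 3, miR-17-5p and miR-20a-3p entered the test through EAM alone. The count was 5 with no scaling (71.2%). When 1 array was left out it ran from 0 to 5 (without LAD array 2, where 81.3% of all passed). The median difference of the members, -0.37, turned to 0.57 with the 75th percentile of all probes, 0.076 with that of detected probes, 0.62 with median centring and 1.495 with no scaling. When 1 array was left out it ran from -0.70 to 0.13, the last without LAD array 2. LAD array 2 was highest for 7 tested members, and for 2 with no scaling. The cause of these changes was not tested.

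Differences of single members also turned. With the 75th percentile of all probes miR-18a-5p was at 0.086, miR-19a-3p at 0.56, miR-20a-5p at 0.81, miR-19b-3p at 0.83 and miR-92a-3p at 1.08. With that of detected probes miR-17-5p was at -0.15, miR-20a-5p at 0.15, miR-19b-3p at 0.17 and miR-92a-3p at 0.42. With median centring miR-18a-5p was at 0.016, miR-19a-3p at 0.59, miR-20a-5p at 0.87, miR-20a-3p at -0.056, miR-19b-3p at 0.90 and miR-92a-3p at 1.15. With no scaling miR-18a-5p was at 0.89, miR-19a-3p at 1.46, miR-20a-5p at 1.74, miR-19b-3p at 1.78 and miR-92a-3p at 2.02. miR-18a-5p was at 0.38 with array weights, and from -0.69 to 0.42 when 1 array was left out. Under the 75th-percentile scalings miR-20a-3p lay at the floor on all 7 arrays and miR-17-5p on 2 or 3, which bounds their differences there.

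The replicate number as a block left 0 members past the threshold (miR-19b-3p at -0.74, limma adjusted p = 0.0974). The deviations of same-numbered arrays from their group means had correlations of 0.20, -0.16 and -0.19. With so few arrays these values cannot tell whether equal numbers share anything. The unmoderated unequal-variance test, which does not assume 1 spread for both groups, gave miR-19b-3p an adjusted p of 0.222, and LAD varied more for every tested member.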
